A study of Mus musculus with 8 samples.

Results

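RXR-bound regions were examined at 8 genes of triglyceride synthesis and lipid droplet formation, namely Gpam, Lpin1, Lpin2, Lpin3, Dgat1, Dgat2, Fitm1 and Fitm2. A peak belonged to the set when its summit, the position of highest signal, lay inside one of these genes or within 50 kb of either end. The set held 56 of the 23961 deposited peaks, with 0 of 8 peaks in edKO replicate 3, 0 of 127 in edKO replicate 4, 43 of 19129 in WT replicate 3 and 13 of the 4697 peaks of WT replicate 4. The data were chromatin immunoprecipitation and sequencing (ChIP-seq) libraries of total hearts of newborn mice at postnatal day 0, made with an antibody against RXR. The edKO hearts lacked Rxra and Rxrb in cardiomyocytes, while WT hearts were wild type. The replicates were single hearts, 2 of each genotype under the numbers 3 and 4, with an immunoprecipitate and an input library from every heart. The labels state neither the Cre driver nor the strain or sex of the animals. Because the total heart was used, RXR in other cell types was not removed by the deletion, and fewer bound cells and less binding per cell cannot be told apart.

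Triglycerides are built by stepwise addition of fatty acids to a glycerol backbone. Gpam encodes the acyltransferase of the outer mitochondrial membrane that adds the first fatty acid to glycerol-3-phosphate. The lipins Lpin1, Lpin2 and Lpin3 are phosphatases that turn phosphatidate into diacylglycerol, and Dgat1 and Dgat2 encode unrelated acyltransferases that add the last fatty acid. Fitm1 and Fitm2 encode membrane proteins of the endoplasmic reticulum that help to package triglyceride into droplets. Retinoid X receptors bind DNA as partners of other nuclear receptors, among them the peroxisome proliferator-activated receptors, which are known for the control of lipid genes in the heart.

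Promoter sequences of the genes were taken from RefSeq (GRCm38.p6, the same build as mm10), which held 10 promoters of 6 of the 8 genes. Dgat1 and Dgat2 had no entry. Of the 10 promoter windows, from 250 bases before to 50 bases after a start site, those of Fitm1 and Fitm2 overlapped a peak in both WT hearts, so the 250 bases before these start sites are shown 5′ to 3′ with capitals on the bases that lay under the peaks of both hearts. Fitm1 is on the plus strand at chr14:55575424-55575673 and Fitm2 on the minus strand at chr2:163472630-163472879.
Fitm1: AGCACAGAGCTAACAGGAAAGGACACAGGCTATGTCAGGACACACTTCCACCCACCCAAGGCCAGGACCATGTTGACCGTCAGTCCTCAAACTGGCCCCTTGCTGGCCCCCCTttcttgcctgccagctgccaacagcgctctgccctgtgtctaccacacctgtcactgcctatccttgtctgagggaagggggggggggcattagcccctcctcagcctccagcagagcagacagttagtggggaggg
Fitm2: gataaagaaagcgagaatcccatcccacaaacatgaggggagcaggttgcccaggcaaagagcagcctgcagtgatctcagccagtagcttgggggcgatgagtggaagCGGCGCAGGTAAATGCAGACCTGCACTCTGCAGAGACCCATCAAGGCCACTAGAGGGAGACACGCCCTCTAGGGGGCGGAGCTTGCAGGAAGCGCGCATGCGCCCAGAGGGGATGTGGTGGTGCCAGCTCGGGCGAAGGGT

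The third sequence is an inner start site of Gpam on the minus strand, at chr19:55099478-55099727, which lay under a peak of WT replicate 3 and is shown because it holds a receptor hexamer, given in capitals.
Gpam: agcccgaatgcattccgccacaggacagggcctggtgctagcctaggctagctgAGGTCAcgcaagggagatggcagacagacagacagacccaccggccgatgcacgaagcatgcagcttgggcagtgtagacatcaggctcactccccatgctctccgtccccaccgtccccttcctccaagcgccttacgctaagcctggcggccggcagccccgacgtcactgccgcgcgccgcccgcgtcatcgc

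RXR partners recognise direct repeats of such hexamers. The search covered AGGTCA together with its variant GGGTCA, and likewise AGTTCA along with the variant GGTTCA. It took in both strands, single hexamers and direct repeats of any combination of the 4 with a spacer of 0 to 5 bases, and hexamers inside a repeat were counted as single ones too. None of the 10 promoters held a direct repeat, and 0.907% of all 32851 RefSeq promoters of the same length did. A single hexamer was found in 2 of the 10, against 43.7% of all promoters. In both it was AGGTCA, which by itself was found in 16.3% of all promoters. At the inner start of Gpam it began 196 bases before the start. At Lpin1 it began 74 bases before the only listed start, which also lies inside the gene. The promoters of Fitm1 and Fitm2 held none of the 4 hexamers. The windows end 50 bases after the start site, and the peaks away from start sites were not searched.

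The first comparison asked how far RXR binding at these genes depended on Rxra and Rxrb in cardiomyocytes. No peak was called at any of the 8 genes in either edKO heart, while every gene had at least 3 peaks in WT replicate 3 and 7 of the 8 had at least 1 in WT replicate 4. The genotype means were 0 peaks in edKO hearts and 28 ± 21.2 peaks in WT hearts (SD, n = 2 each), a difference of edKO minus WT of -28 peaks. The groups did not overlap, but 2 hearts against 2 cannot give an exact permutation p below 0.333, which was the p of this two-sided test. The difference was -13 peaks without WT replicate 3 and -43 without WT replicate 4, so its size depended on which WT heart was used. Among all 21887 protein-coding genes, 0.119% had a peak of edKO replicate 3 within the same distance and 1.52% one of edKO replicate 4. For WT replicate 3 the share was 64.5% and for WT replicate 4 it was 33.5%.

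**Figure D1:**
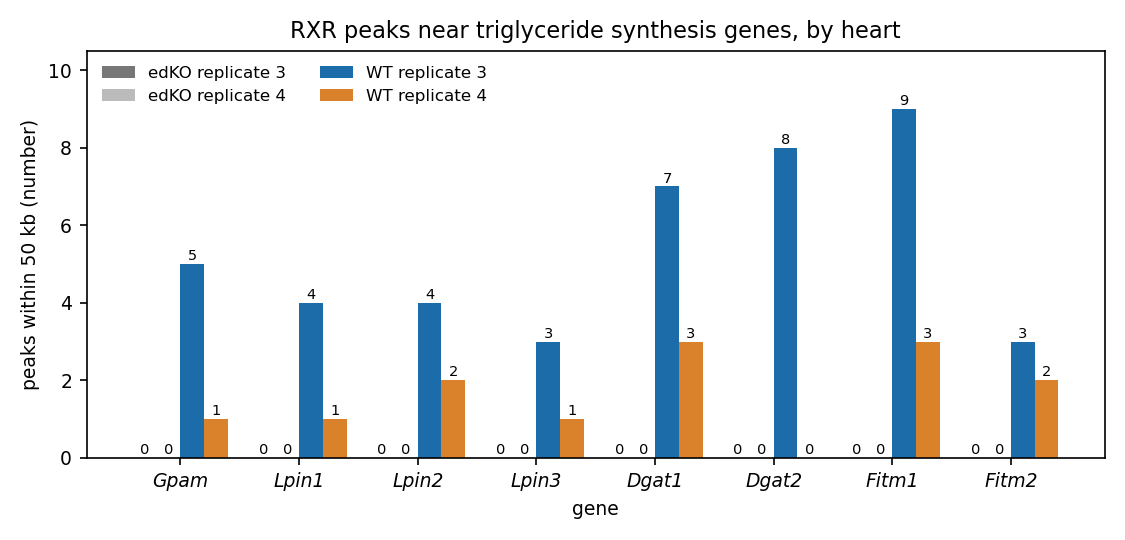
Number of called RXR peaks (vertical axis) with the summit inside or within 50 kb of each gene (horizontal axis), 1 bar per heart, with the number above it. Both edKO hearts are at 0 for every gene, WT replicate 3 has 3 to 9 peaks per gene, and WT replicate 4 has 0 to 3, with 0 at Dgat2.

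Peaks of both WT hearts that overlapped by at least 1 bp formed 13 shared regions, at 7 of the 8 genes, against 32.4% of all protein-coding genes. The gene without a shared region was Dgat2. Within 10 kb the count was 6 of the 8, against 17.5%. These regions took up 13 of the 43 peaks of WT replicate 3, where 22.7% of the whole list was shared, and 13 of the 13 peaks of WT replicate 4, where 92.4% was. None of the 13 regions overlapped an edKO peak. Across all 4342 shared regions 2.97% did, 0.184% in edKO replicate 3 and 2.88% in edKO replicate 4, so a count of 0 among 13 is close to the background and says nothing particular about these genes. An edKO list does not record signal below its own calling limit. The weakest called peak had 24 fragments at the summit in edKO replicate 3 and 17 in edKO replicate 4. All 13 regions had at least 17 fragments in both WT hearts, and 5 had at least 24. These fragment numbers were recovered from the deposited peak statistics. The lowest local background was 3.13 and 2.96 fragments per position in edKO replicates 3 and 4. It was 2.48 and 2.40 in WT replicates 3 and 4. The lowest −log10 p of a called peak was 9.53 and 6.03 in edKO replicates 3 and 4. In WT replicates 3 and 4 it was 3.85 and 4.70. The region with 17 fragments, at Dgat1, had a −log10 p of 5.95 in WT replicate 4. Fragments were not scaled for depth, so whether the 13 regions could have been called in edKO hearts was not tested.

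Fold enrichment, the authors' ratio of fragments at a summit to the local background of the same heart, describes the strength of each peak below. The regions at these genes ranged from rank 123 to rank 4040 by mean fold enrichment among the 4342 shared regions. Their median fold enrichment, averaged over the WT hearts, was 9.65, and 7 of the 13 lay above the median of 7.81 of all shared regions. The strongest region of each gene had a median of 10.7 over the 7 genes, and 8.67 over all genes with a region. The 8 genes lay in windows with more peaks than most: the median was 4.5 peaks of WT replicate 3 per gene against 1 over all protein-coding genes, and the windows held 38.6 peaks per Mb against 10.2. Many of these peaks lay closer to other genes: 18 of the 43 peaks of WT replicate 3 had a member as the nearest gene. These genes had a median length of 27.2 kb, against 17.2 kb for all protein-coding genes, and a median of 2.5 other protein-coding genes within 50 kb, against 3.

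**Figure D2:**
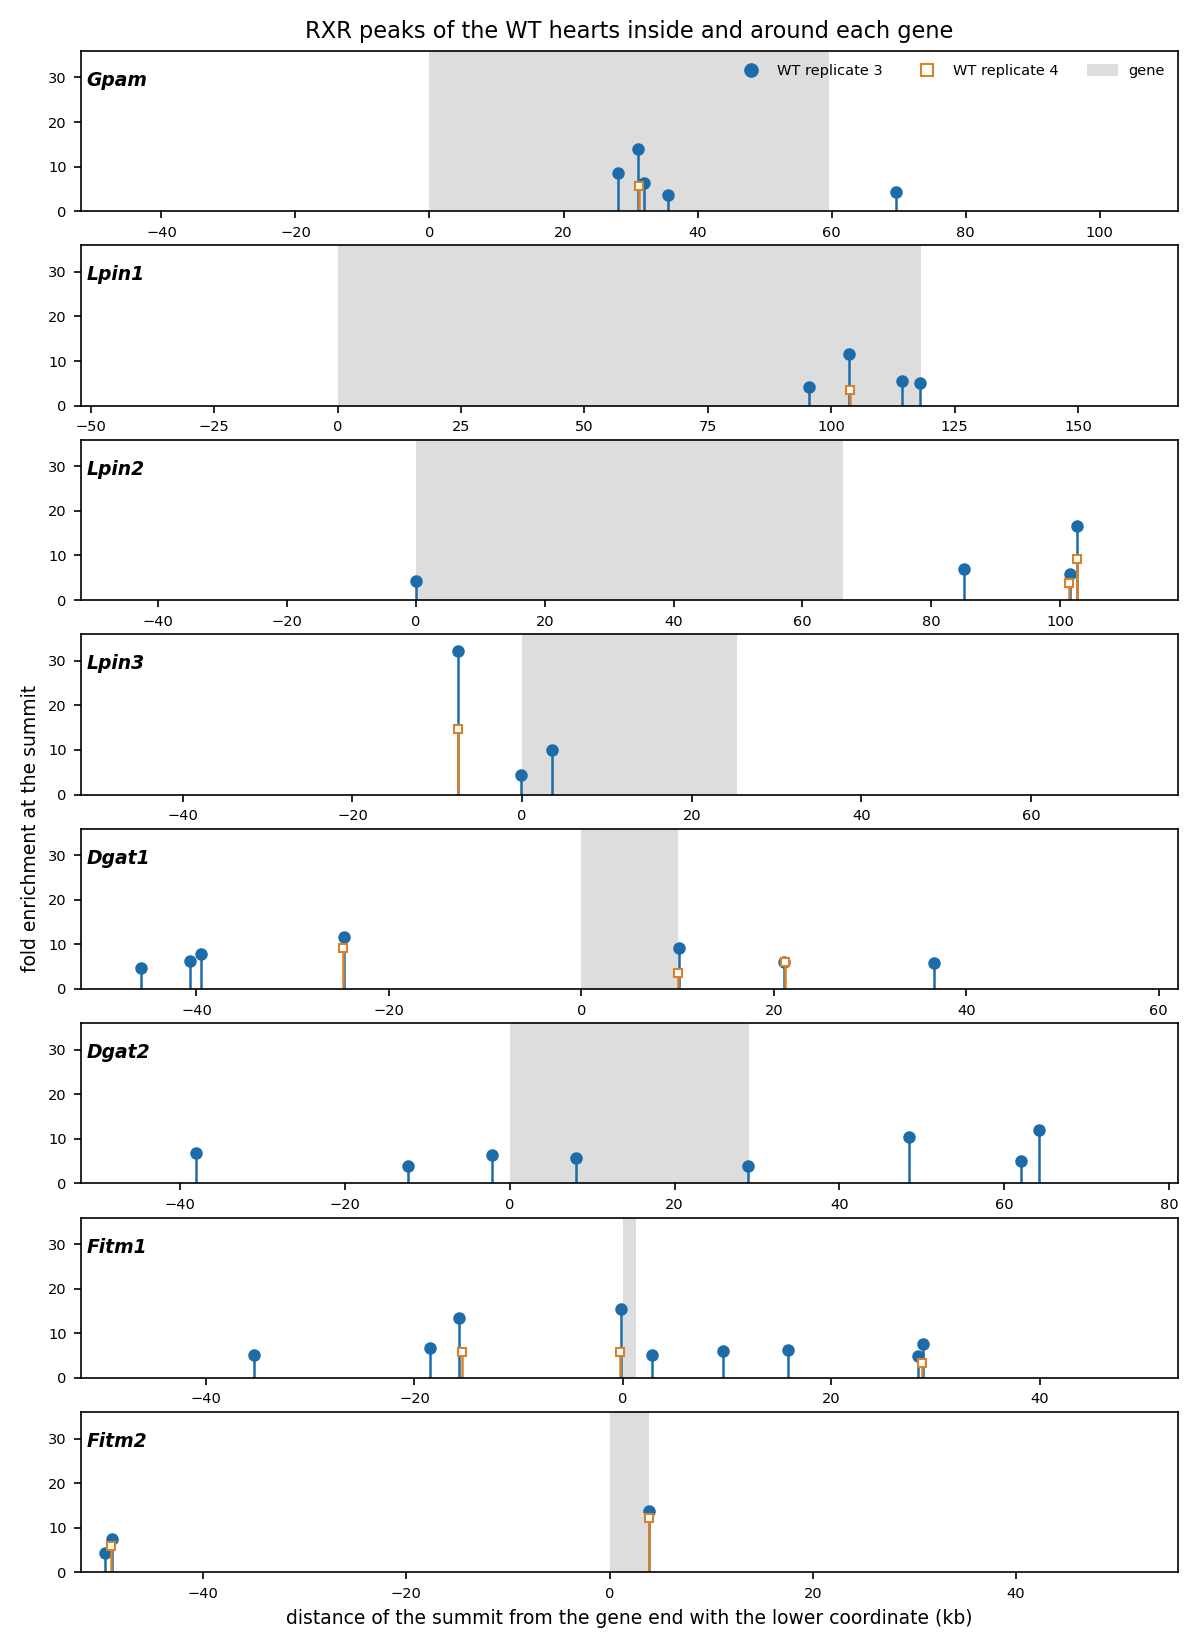
Fold enrichment (vertical axis) of each WT peak by the distance of its summit, in kb, from the gene end with the lower coordinate (horizontal axis, a scale of its own for each gene), with the gene in grey, filled circles for WT replicate 3 and open squares for WT replicate 4. The tallest peak, at Lpin3, stands outside the gene, and Dgat2 has circles without squares.

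The droplet gene Fitm2 had a region at its start site of nearly equal strength in both WT hearts. No peak was called there in edKO replicate 3 or edKO replicate 4, and the fold enrichment was 13.8 in WT replicate 3 and 12.3 in WT replicate 4, a mean of 13.0 ± 1.08 (SD, n = 2). The region lay on chromosome 2 from 163472386 to 163472792 (mm10), and its summits stood 49 bases after the start site in WT replicate 3 and 5 bases before it in WT replicate 4. The fragments at the summit numbered 47 (95% Poisson interval 34.5 to 62.5) in WT replicate 3 and 41 (29.4 to 55.6) in WT replicate 4, which overlap widely. In the list of WT replicate 4 it ranked 339 among the shared regions, and in that of WT replicate 3 it ranked 1142. A second region near Fitm2, 49.0 kb outside the gene, was nearest to Oser1, an oxidative stress-responsive gene, with 7.42 in WT replicate 3 and 5.84 in WT replicate 4. It was the region nearest to the distance limit: no peak of any heart lay between 50 and 60 kb from the 8 genes.

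Fitm1, the relative of Fitm2 that in mouse is expressed mainly in muscle, also had a shared region just before its start site. The fold enrichment was 15.5 in WT replicate 3 and 5.92 in WT replicate 4, with no peak in either edKO heart. Its summits stood 207 and 235 bases before the start in WT replicates 3 and 4, on chromosome 14 from 55575297 to 55575632. The summit held 53 fragments (39.7 to 69.3) in WT replicate 3 and 21 (13.0 to 32.1) in WT replicate 4. The Fitm1 window is crowded, with 9 other protein-coding genes within 50 kb, and held 9 peaks of WT replicate 3. One further shared region lay inside Dcaf11, a ubiquitin ligase adaptor gene, 15.7 kb outside Fitm1, with 13.5 in WT replicate 3 and 5.81 in WT replicate 4. Another lay inside Irf9, an interferon-response transcription factor gene, 27.5 kb outside, with 7.69 and 3.39 in WT replicates 3 and 4.

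Gpam was the only member with no other protein-coding gene within 50 kb. Its shared region lay inside the gene on chromosome 19 from 55098427 to 55098988, with the summit of WT replicate 3 at 720 bases after the inner start site printed above. The fold enrichment was 13.9 in WT replicate 3 and 5.61 in WT replicate 4, a mean of 9.76 ± 5.86 (SD, n = 2), and no edKO heart had a peak. Fragments numbered 54 (40.6 to 70.5) in WT replicate 3 and 28 (18.6 to 40.5) in WT replicate 4, so the intervals did not overlap. Around it stood 3 further peaks inside the gene that were called in WT replicate 3 but not in WT replicate 4, at 8.61, 6.36 and 3.56, the second of them with its summit 133 bases before the inner start site. The outer promoter of Gpam overlapped no peak.

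Among the lipins, Lpin3 carried the strongest region of the set, although it lay next to another gene. The fold enrichment was 32.2 in WT replicate 3 and 14.7 in WT replicate 4 (mean 23.4 ± 12.3, SD, n = 2), with no peak in edKO hearts, and 150 (127 to 176.0) and 63 (48.4 to 80.6) fragments in WT replicates 3 and 4. It ranked 123 of the 4342 shared regions by its mean. The region, on chromosome 2 from 160872864 to 160873520, stood 7.57 kb before the start of Lpin3 and 113 bp outside Zhx3, a zinc finger homeobox gene. At the start of Lpin3 itself, 144 bases before it, WT replicate 3 had a weak peak of 4.31, and inside the gene one of 10.1. Neither was called in WT replicate 4. The 3 shared regions most like the strongest one in fold enrichment over the 2 WT hearts were nearest to Uck1 (33.4 in WT replicate 3 and 14.8 in WT replicate 4), to the overlapping genes Atf5 and Nup62 (30.8 and 14.5) and to Frmd4a (31.7 and 15.5).

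Lpin1, the main lipin of adult muscle and heart, had a weaker shared region inside the gene, on chromosome 12 from 16639156 to 16639580. The fold enrichment was 11.6 in WT replicate 3, against 3.55 in WT replicate 4, the widest ratio among the 13 regions (3.27), and no peak was called in edKO hearts. The summit held 45 fragments (32.8 to 60.2) in WT replicate 3 and 21 (13.0 to 32.1) in WT replicate 4, over a local background of 2.96 fragments in WT replicate 3, against 5.17 in WT replicate 4. Its −log10 q in WT replicate 4 was 3.69, and Lpin1 dropped out of the shared set when a −log10 q of at least 5 was asked of every peak. All 4 peaks of WT replicate 3 at Lpin1 lay inside the gene, and one of them, at 5.04, was also inside the overlapping neurotensin receptor gene Ntsr2. The single RefSeq promoter of Lpin1 overlapped no peak, but its start, at 16610966 on the minus strand, lies inside the gene. The gene reaches to 16653903, its upstream end, and the peak of 5.04 had its summit near there, at 16653677. The shared region stood 28.4 kb before the listed start.

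Lpin2 had no shared region within 10 kb. Its 2 shared regions lay inside the neighbouring gene Emilin2, which encodes an extracellular matrix glycoprotein. The stronger one, on chromosome 17 from 71285843 to 71286356 and 36.3 kb outside Lpin2, had 16.7 in WT replicate 3 and 9.19 in WT replicate 4, with 93 (75.1 to 114) and 37 (26.1 to 51.0) fragments. The weaker one, 35.2 kb outside, had 5.75 in WT replicate 3 and 3.87 in WT replicate 4, and no edKO heart had a peak at either. At its own start Lpin2 had a peak of 4.35 in WT replicate 3, 33 bases before the start site, which was not called in WT replicate 4.

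**Figure D3:**
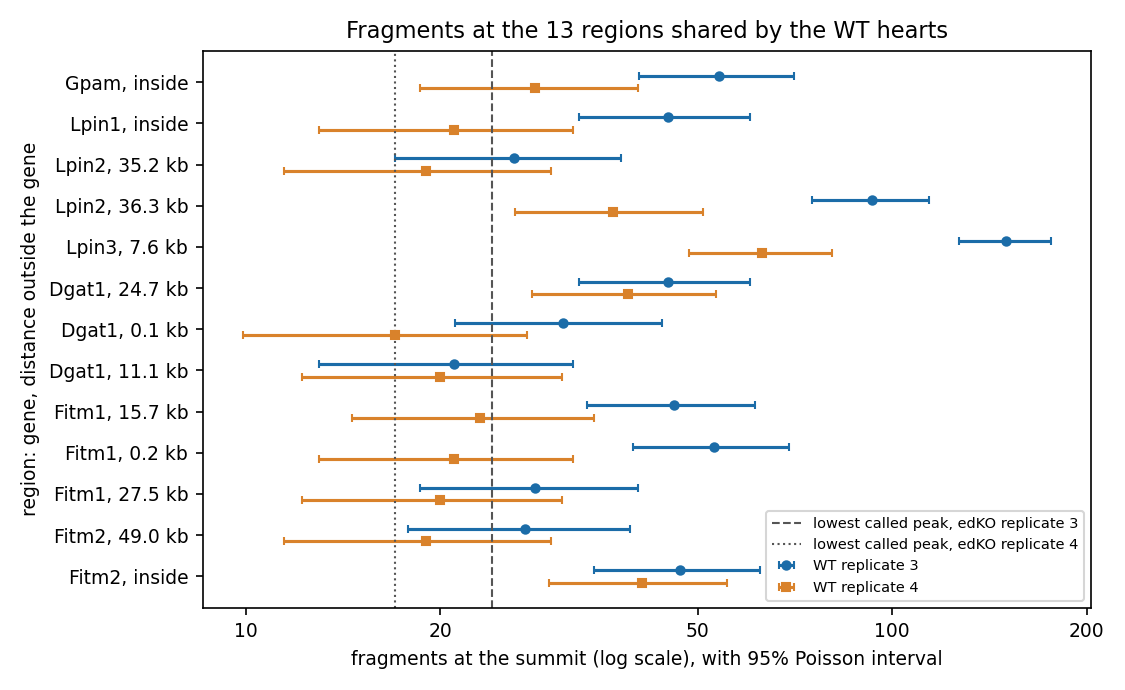
Fragments at the summit of each of the 13 shared regions (horizontal axis, log scale) in WT replicates 3 and 4 with 95% Poisson intervals, by gene and distance outside it. Lines mark the fewest fragments of a called peak in edKO replicate 3 (24) and edKO replicate 4 (17). WT replicate 3 lies above WT replicate 4 in each region, while the intervals overlap in 8 regions and are apart in 5.

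The final acyltransferases differed from each other in what both WT hearts shared. Dgat1 had 3 shared regions and Dgat2 had none, although Dgat2 had 8 peaks in WT replicate 3 and Dgat1 had 7. This difference was not tested, since peaks at 1 gene are not replicates. At Dgat1 the region nearest to the gene lay on chromosome 15 from 76511827 to 76512396, 125 bp outside. It had 9.19 in WT replicate 3 and 3.49 in WT replicate 4, with no peak in edKO hearts. Its summit held 31 fragments (21.1 to 44.0) in WT replicate 3 and 17 (9.90 to 27.2) in WT replicate 4. Its −log10 q in WT replicate 4 was 2.67, the lowest of the 13 regions, so it was lost at a −log10 q of at least 5. A stronger one, 24.7 kb outside and 44 bp from the ribosome biogenesis gene Bop1, had 11.6 in WT replicate 3 and 9.22 in WT replicate 4, with 45 (32.8 to 60.2) and 39 (27.7 to 53.3) fragments. The remaining one lay 11.1 kb outside, 955 bp from the transcriptional repressor gene Scrt1, with 6.13 in WT replicate 3 and the same value, to 3 digits, in WT replicate 4. Dgat1 had 8 other protein-coding genes within 50 kb, and 2 of its 3 shared regions were closer to one of them than to Dgat1.

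At Dgat2 the strongest peaks of WT replicate 3 lay towards Mogat2, the monoacylglycerol acyltransferase gene beside it, at 12.1 (41 fragments, 29.4 to 55.6) and 10.4 (48 fragments, 35.4 to 63.6), 35.2 and 19.4 kb outside Dgat2. Inside Dgat2 there were peaks of 5.74 and 3.98, and 2.15 kb outside it one of 6.32. None was called in WT replicate 4 or in edKO hearts. Among the 11 peaks of WT replicate 3 at the 8 genes with a fold enrichment of at least 10, these 2 and the one inside Lpin3 were the 3 without a partner in WT replicate 4. Over the whole list of WT replicate 3, 77.7% of the 2591 peaks of that strength had one.

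The WT hearts were then compared over all members. WT replicate 3 had the higher fold enrichment in each of the 13 regions, by 1.00 to 3.27 times with a median of 2.18. The median over all shared regions was 1.49. Most of all shared regions were thus also higher in WT replicate 3, and the direction is not particular to these genes. The fragment intervals of the hearts overlapped in 8 regions and were apart in 5, namely the stronger Lpin2 region, the Lpin3 region, the Gpam and Lpin1 regions and the promoter region of Fitm1. These fragments were not scaled for depth or local background, and their intervals do not cover the spread between animals. The same split was not counted over all shared regions. Summits of the hearts lay a median of 54 bp apart, against 36 bp over all shared regions, with a maximum of 262 bp in the wide region inside Dcaf11. The remaining 30 peaks of WT replicate 3 had fold enrichments of 3.56 to 12.1 with a median of 5.60, and the 13 shared ones 5.75 to 32.2 with a median of 11.6. In all, 5 of the 13 shared regions had a member as the nearest gene, at Gpam, Lpin1, Dgat1, Fitm1 and Fitm2.

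Other genes of the pathway were read from 5 lists, beside the background of 32.4% of all genes with a shared region. Of 11 further acyltransferases 7 had a shared region within 50 kb, led by Agpat3, a lysophosphatidate acyltransferase gene (29.0 in WT replicate 3 and 12.4 in WT replicate 4, inside the gene), and Gpat3, a glycerol-3-phosphate acyltransferase gene (16.4 and 8.54, inside the gene). Of the 3 further phosphatidate phosphatases Plpp1 and Plpp3 had one, and that of Plpp3, 46.0 kb outside the gene, had 32.6 in WT replicate 3 and 17.1 in WT replicate 4. Of 5 genes that draw phosphatidate or diacylglycerol into phospholipids 2 had one, Cept1 (11.2 and 4.97) and Selenoi (8.22 and 3.32). Of 8 droplet genes 6 had one, but only 2 within 10 kb, Plin2 and Plin5. Ctdnep1, the phosphatase that activates lipins, had 3, 1 of them within 10 kb, with the strongest nearest to Slc2a4, and Cnep1r1, its partner, had none. No edKO replicate 3 peak lay within 50 kb of these 29 genes, and 1 of them, Ctdnep1, had an edKO replicate 4 peak, against a background of 0.119% and 1.52% of all genes.

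Peak lists hold no transcript level, so the cell types of the hearts and the loss of Rxra and Rxrb could not be checked from them. Shared regions lay within 50 kb of 7 of 8 cardiomyocyte markers, 3 of 5 endothelial, 1 of 5 fibroblast and epicardial and 2 of 5 blood and macrophage markers. The share over all protein-coding genes was 32.4%. The strongest regions near Pln, Eng, Spi1 and Cd68 were nearest to other genes, namely Cep85l, Ak1, Mybpc3 and Mpdu1. Peaks of edKO replicate 4 lay near 2 of the cardiomyocyte markers (Myh6 and Atp2a2) and 1 endothelial marker (Eng), against 1.52% of all genes. Eng also had the single edKO replicate 3 peak of these lists, against 0.119% of all genes. The part of other cell types in the regions at the 8 genes was not tested.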

How the data were processed

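RXR ChIP-seq of total newborn hearts was analysed from 4 deposited peak lists, 1 per heart. Per the submitters' processing notes, cutadapt, BWA, SAMtools and MACS3 were used with the build mm10 (GRCm38). No version or setting is given in the sources used here. Per the labels, each list belongs to 1 immunoprecipitate and its input, so hearts were not pooled. The deposited fold enrichment is a ratio over the local background. The deposited −log10 p and −log10 q measure each peak against that background, q within its own list. The deposited score column repeats the −log10 q and was not used.

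Fragments at the summit were recovered by solving the fold enrichment (pseudocount 1) and the Poisson −log10 p together, which gave whole fragments within 0.02 for 100% of the solved peaks in each list, with 8 peaks of WT replicate 3 not solved. The procedure was tested on simulated data. Without molecular identifiers, Poisson intervals cover counting error only. A WT replicate 4 peak was paired with its strongest overlapping WT replicate 3 peak, and the summit of WT replicate 3 was used. Genes came from a RefSeq table of GRCm38.p6 (21887 protein-coding nuclear genes), without exons, so exonic and intronic positions are not stated. No genome sequence was used, so the planned motif search around summits was replaced by RefSeq promoters. Ldaf1 was matched by the older symbol Tmem159. Python 3.11.15, numpy 2.4.6, scipy 1.17.1 and pandas 2.3.3 were used. All 8 members are named, with the nearest genes of their regions and the 3 regions closest in log2 fold enrichment to the strongest one. Members and lists were chosen with earlier results of these data known. The hearts were not treated as pairs, since the labels do not tie a number to a litter or day.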

Additional observations from a re-analysis of the deposited data

How the results depend on the processing

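Of 33 alternative values of the main results that carry no test, 30 lay within 1.5 times for counts or within the spread between WT hearts for fold enrichment. The 30 include every alternative of the edKO overlap count and of the direct repeat count, which were 0 throughout. Settings that only narrow the search could give nothing but 0 there, so these say nothing about stability. The spread for fold enrichment was the SD between the WT hearts. Leaving out either WT heart moves the mean of a given region by less than this SD, whatever its values. Fold enrichment within the spread in those settings therefore says little about stability. The number of shared regions, 13, became 6 within 10 kb and 5 with only regions whose nearest gene was a member. It was 13 to 43 without either WT replicate, the higher value being all peaks of WT replicate 3. At a −log10 q of at least 5 it was 9, and a region at each of Lpin1, Lpin2, Dgat1 and Fitm1 was lost. The number of genes with a shared region, 7, was between 5 and 8, and at a −log10 q of at least 5 Lpin1 was lost. The strongest Dgat1 region had a fold enrichment of 6.34, against 10.4, within 10 kb and with the nearest gene alone, since the stronger one lies by Bop1. With equal list lengths of the WT hearts, chosen after seeing the data, 9 regions at 7 genes were shared. The difference in peak number, edKO minus WT, was -28 with the replicate block (paired exact permutation p = 0.5), the only result fitted with it. The same difference was -13.5 within 10 kb, -11.5 where the nearest gene was a member, -13 with equal list lengths and -43 to -13 without either WT replicate. With 2 hearts per genotype no test could pass, so its p-values say nothing about stability. No sequence around the summits was used, so the narrower motif window was not run, and AGGTCA alone gave 0 direct repeats.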
